A study of Chlamydomonas reinhardtii with 9 samples.

Results

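The nuclear genes that lie around CEHC1 on chromosome 1 of the green alga Chlamydomonas reinhardtii were followed across 3 strains, one of which carries a mutation in CEHC1. The members were all genes of the deposited table whose identifier number runs from Cre01.g003500 to Cre01.g008500, without CEHC1 (Cre01.g005900_4532) and without genes that belong to other named families, except FAP23. The range held 92 genes, and 79 of the 17609 genes of the table remained as members after CEHC1 and 12 family genes were left out. Of the members, 40 lie to the left of CEHC1 and 39 to the right. The rule used position and gene names, and no expression value entered it.

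PolyA RNA was sequenced from 3 cultures of each strain. Strain B6 (CC-4507) has the CEHC1 WT genotype and stands as the wild type here. Strain B6-F (CC-4509) is the cehc1-1 mutant, and strain B6-F_resc (CC-5386) is the mutant after transformation with the wild-type gene, here called the rescued strain. All were grown with air in acetate-containing TAP medium in days of 14 h light and 10 h dark, and collection was 6 h into the light period. The nature of the cehc1-1 lesion and the place where the rescuing copy entered the genome are not given in the labels. Each genotype is 1 strain, so the genotype and any other difference between the strains cannot be told apart, and p-values measure the spread between cultures of a strain.

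In the series, CEHC1 is studied for its control of the amount of CRR1, the copper response regulator, a transcription factor that turns on genes for life without copper. Nuclear genes of Chlamydomonas stand close together, and each generally has its own promoter, so neighbours need not share their regulation. DNA brought in by transformation is generally inserted into the nuclear genome at sites that the experimenter does not choose. In a cross, genes that lie close together on a chromosome tend to be inherited together. The comparison asks which neighbours of the mutated gene differ between strains and whether they return in the rescued strain.

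Values are FPKM, fragment numbers divided by transcript length and by library size, so that levels of different genes are comparable per length. Differences are on the log2(FPKM + 1) scale from limma fitted to all genes, and they understate the change of low genes. A gene was called, and is said to have risen or fallen, at an adjusted p under 0.05 with a difference of at least 1 in size. Testing was limited to the 11360 genes whose mean reached 1 FPKM, and 51 of the 79 members were among them. Groups of libraries without overlap were common among all genes tested. Their share was 71.4% in mutant against wild type, 66.5% in rescued strain against mutant and 48.5% in rescued strain against wild type. Read numbers were not given, and depth could not be recovered, since at most 21.2% of 118 very low genes shared a common step between libraries. The FPKM of all genes summed to 592929 to 645234 in the mutant libraries against 888154 to 1108532 in the other 6. FPKM are relative to the rest of a library, so rescaled values are given where they change a call.

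The level of CEHC1 and the mating type of the strains stand beside every result. CEHC1 itself had 9.10, 7.07 and 9.77 FPKM in wild-type libraries, 17.4, 18.0 and 16.2 in mutant libraries and 26.2, 25.4 and 27.9 in rescued libraries. The groups did not overlap, and the gene was thus highest in the strain with the added copy. MID1, the gene of the minus mating type, was listed at 0 in all 6 wild-type and mutant libraries and at 2.89, 2.46 and 3.29 FPKM in the rescued strain, while FUS1, a gene of the plus mating type, was listed at 0 in the rescued libraries and at 0.132 to 0.323 in the other 6. The rescued strain thus differed from the other 2 at the mating-type locus, which is on another chromosome. It therefore differed from the mutant in more than the added copy of CEHC1. The part of the mating-type difference in the results below was not tested.

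The nearest neighbours came first. In the RefSeq gene table of an earlier assembly, in which all 92 genes of the range were found in the same order as their identifiers, no gene lies between CEHC1 and FAP23 on one side or Cre01.g005950_4532 on the other. FAP23 encodes a flagellar associated protein, one of the proteins found in the cilia with which the cell swims. It had 28.4, 18.8 and 27.6 FPKM in wild-type libraries, 9.63, 12.6 and 10.1 in mutant libraries and 14.4, 12.1 and 11.4 in rescued libraries. Every wild-type library lay above every library of the other strains, and mutant and rescued libraries overlapped. FAP23 fell in the mutant (difference -1.12, SE 0.16, adjusted p 0.00012, limma). Rescued strain minus mutant gave a difference of 0.22 (SE 0.16, adjusted p 0.26), and that of rescued strain from wild type was -0.91 (SE 0.16, adjusted p 0.0017), below the size set for a call. A return of FAP23 in the rescued strain was thus not detected. The size of its fall lay near the minimum, since a pseudocount of 5 gave -0.91, rescaling by median ratios gave -0.99 and quantile normalization gave -0.83, which are no longer calls. Without wild-type replicate 2, the lowest of the wild-type libraries, the rescued strain was lower than the wild type by more than 1 (difference -1.09, adjusted p 0.00073, limma).

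The neighbour on the other side, Cre01.g005950_4532, has no symbol. It had 11.1, 13.1 and 23.0 FPKM in wild-type libraries, 21.7, 23.4 and 15.7 in mutant libraries and 3.04, 1.93 and 2.10 in rescued libraries. Wild-type and mutant libraries overlapped, while every rescued library was below both. The gene fell in the rescued strain relative to the mutant (difference -2.66, SE 0.24, adjusted p 7.4e-06, limma) and relative to the wild type (difference -2.27, SE 0.24, adjusted p 0.00015). Mutant minus wild type gave 0.39 (SE 0.24, adjusted p 0.17). The flanking genes of CEHC1 thus showed unlike patterns, with FAP23 lower in both other strains than in the wild type and Cre01.g005950_4532 low in the rescued strain. In the rescued strain, in which CEHC1 was highest, both flanking genes were below their wild-type libraries.

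**Figure D1:**
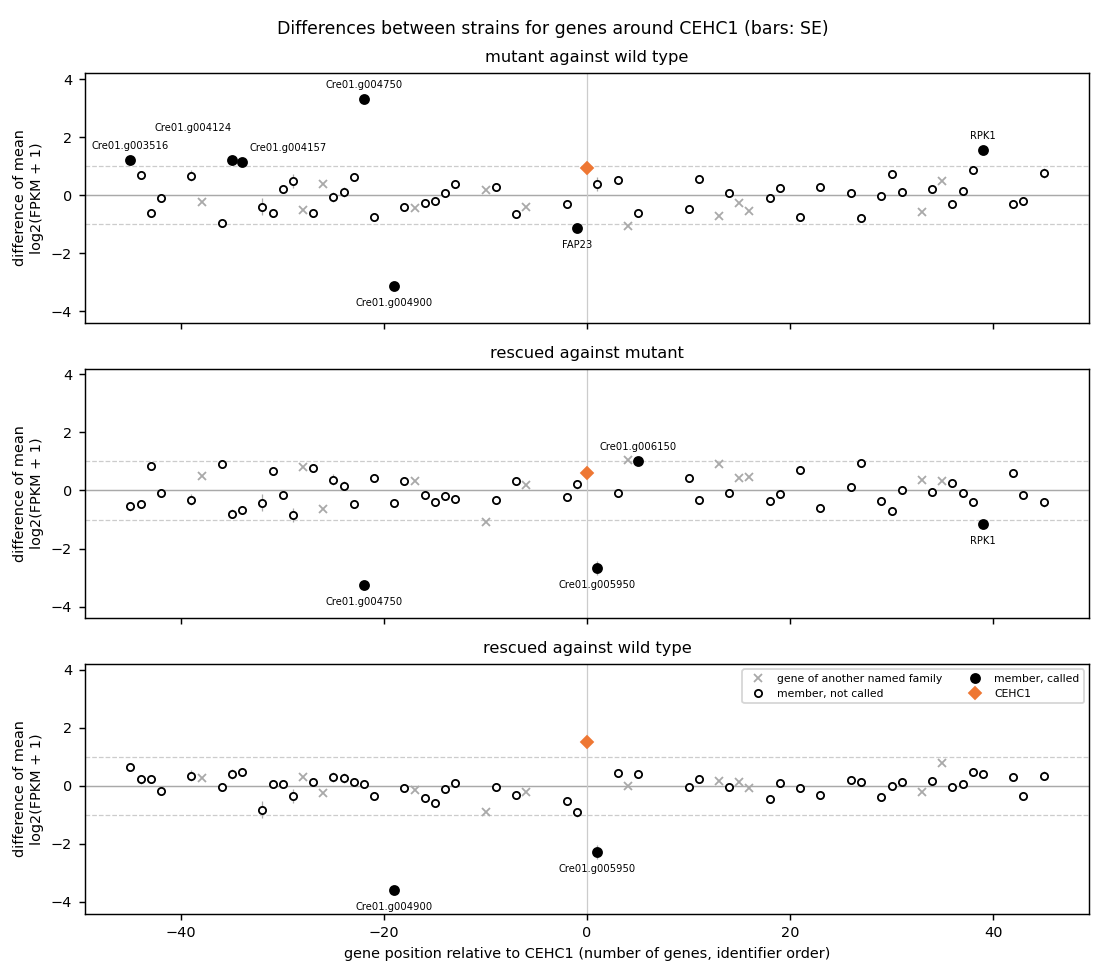
Difference of mean log2(FPKM + 1) between strains (vertical axis, bars SE) for the tested genes of the range, placed by their number of genes from CEHC1 (horizontal axis). Filled points are called members, open points members not called, crosses genes of other named families and the diamond CEHC1. The 2 lowest members in the rescued strain relative to the wild type are Cre01.g004900 at -3.58 and Cre01.g005950 at -2.27.

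Beyond these, the closest tested members were POB31 and Cre01.g005550_4532 on the left and LF3 and Cre01.g006150_4532 on the right. POB31, named for the proteome of the basal body from which a cilium grows, had 2.25, 1.43 and 1.37 FPKM in wild-type libraries, 1.05, 1.20 and 1.12 in mutant libraries and 1.17, 0.640 and 0.741 in rescued libraries. All wild-type libraries were above all others, but the difference of mutant from wild type, -0.32 (SE 0.14), did not pass the test (adjusted p 0.062, limma). It was -0.17 without wild-type replicate 1 (adjusted p 0.24) and -0.57 with quantile normalization (adjusted p 0.0023), the ends of its range of adjusted p-values over the alternatives. That of rescued strain from wild type was -0.53 (SE 0.14, adjusted p 0.013), below the size set for a call. LF3, a gene of the group whose mutants have overlong flagella, was at 2.39, 3.29 and 2.83 FPKM in wild-type libraries, 4.38, 4.48 and 4.69 in mutant libraries and 4.78, 3.92 and 3.98 in rescued libraries. Here the mutant and rescued libraries overlapped, and both groups stood above the wild type. Relative to the wild type, LF3 was higher by 0.53 in the mutant (SE 0.10, adjusted p 0.00091) and by 0.45 in the rescued strain (SE 0.10, adjusted p 0.0061), both under the minimum for a call. Like FAP23, it differed from the wild type in both strains, but in the opposite direction and less far.

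Cre01.g006150_4532 behaved otherwise. It had 11.6, 9.32 and 10.3 FPKM in wild-type libraries, 6.50, 6.09 and 6.66 in mutant libraries and 13.2, 14.9 and 13.5 in rescued libraries, and no 2 groups overlapped. Its difference of mutant from wild type was -0.61 (SE 0.09, adjusted p 0.00014, limma), under the minimum, and it rose in the rescued strain relative to the mutant by 1.00 (SE 0.09, adjusted p 5.7e-06), just past it. This call was lost with a pseudocount of 5 (0.73), with median ratios (0.93), with quantile normalization (0.97), without mutant replicate 2 (0.97) and without rescued replicate 2 (0.96). For Cre01.g005550_4532 the levels were 14.1, 10.9 and 13.8 FPKM in wild-type libraries, 8.45, 7.81 and 7.34 in mutant libraries and 10.7, 11.1 and 8.89 in rescued libraries. The mutant libraries were the lowest group, and the rescued libraries overlapped those of the wild type. The difference of mutant from wild type was -0.65 (SE 0.11, adjusted p 0.00047), and that of rescued strain from mutant was 0.34 (SE 0.11, adjusted p 0.023), neither of them a call.

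Between CEHC1 and these genes lie members too low to test. Cre01.g005750_4532 was at 0.0839, 0.600 and 0.233 FPKM in wild-type libraries, but at 0.0140, 0 and 0.0293 in mutant libraries and at 0.0565, 0 and 0.0429 in rescued libraries. Cre01.g006000_4532 was at 0.0197, 0.121 and 0.0878 FPKM in wild-type libraries, 0.775, 0.750 and 0.535 in mutant libraries and 0.162, 0.419 and 0.241 in rescued libraries. The former was highest in the wild type and the latter in the mutant, with no overlap of the mutant with either other group for Cre01.g006000_4532. On the left, Cre01.g005701_4532 was at 0.289, 0.354 and 0.300 FPKM in wild-type libraries. Its mutant libraries had 0.152, 0.165 and 0.161, below all others, and its rescued libraries had 0.334, 0.414 and 0.334, which overlapped the wild type. Cre01.g005651_4532 was at 0.101 to 0.284 FPKM, and its groups overlapped. All of these are given as values only.

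Over the whole range, 7 of the 51 tested members were called in mutant against wild type, which is 13.7%, against 9.40% of all genes tested. Of the members, 5 rose, or 9.80% (background 4.60%), and 2 fell, or 3.92% (background 4.80%). These shares rest on few genes, and their distance from the background was not tested. By adjusted p alone, 35 members differed, or 68.6% against a background of 66.2%. Of these, 19 were higher in the mutant (background 25.8%) and 16 were lower (background 40.5%). The median difference over the 51 members was 0.06, beside -0.13 over all genes tested. Rescaling by median ratios moved these medians to 0.17 and -0.01. The median of the members was 0.0028 without wild-type replicate 3 and 0.035 without mutant replicate 2. Over the 24 members with a mean of at least 5 FPKM it was -0.34, beside -0.38 over the 5828 genes at that level, so its sign changed with the minimum set for testing. Of the 7 called members, 6 were among the 28 tested on the left of CEHC1 and 1 was among the 23 on the right.

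**Figure D2:**
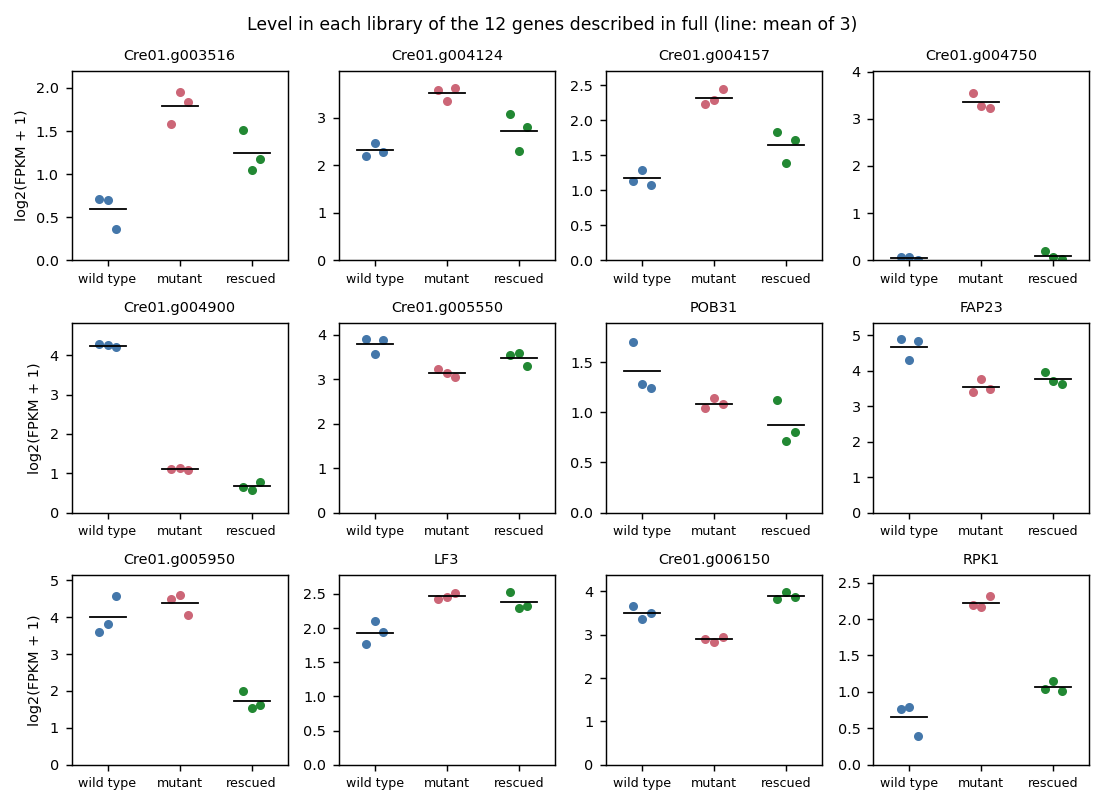
Level on the log2(FPKM + 1) scale (vertical axis, its own range in each panel) of each of the 12 genes described in full, in identifier order. Points are single libraries of the wild type, the mutant and the rescued strain, and lines are means of 3. Cre01.g004750 is high in the mutant alone, Cre01.g004900 in the wild type alone, and Cre01.g005950 is low in the rescued strain.

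The largest rise was that of Cre01.g004750_4532, a gene with no symbol that is 22 genes to the left of CEHC1. It was listed at 0.0466, 0.0476 and 0 FPKM in wild-type libraries, at 10.7, 8.64 and 8.42 in mutant libraries and at 0.142, 0.0481 and 0.0266 in rescued libraries. The gene was thus near 0 in the 6 wild-type and rescued libraries and on in the 3 mutant libraries. It rose in the mutant by 3.31 (SE 0.10, adjusted p 3.2e-09, limma) and fell in the rescued strain relative to the mutant (difference -3.25, SE 0.10, adjusted p 3.8e-09). Rescued strain minus wild type gave 0.05 (SE 0.10, adjusted p 0.68). Its neighbours moved less far or the other way. Cre01.g004700_4532, the next gene to its left, had means of 23.6 ± 3.90, 36.6 ± 3.54 and 25.9 ± 0.637 FPKM in wild type, mutant and rescued strain (SD, n = 3). Its differences had the same signs at a smaller size, 0.62 for mutant minus wild type (adjusted p 0.00077, limma) and -0.48 for rescued strain minus mutant (adjusted p 0.0047), and neither was a call. With quantile normalization its difference of mutant from wild type was 1.03, past the size set for a call. Cre01.g004800_4532, to the right of Cre01.g004750_4532, was lower in the mutant, with 36.1 ± 3.01, 20.8 ± 2.21 and 28.3 ± 2.56 FPKM in the same order.

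RPK1 was the other member that was called in the mutant and called back in the rescued strain. It had 0.704, 0.741 and 0.319 FPKM in wild-type libraries, 3.56, 3.48 and 3.98 in mutant libraries and 1.05, 1.21 and 1.02 in rescued libraries. The 3 groups did not overlap, so that the rescued libraries lay between the others. The rise in the mutant was 1.57 (SE 0.11, adjusted p 2.8e-06, limma), and the rescued strain differed from the mutant by -1.16 (SE 0.11, adjusted p 1.2e-05) and from the wild type by 0.41 (SE 0.11, adjusted p 0.015). RPK1 was not called with a pseudocount of 5, which gave 0.63 for the rise.

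The other 3 members that rose lie at the left end of the range, and none of the 3 has a symbol. Cre01.g003516_4532 had 0.642, 0.627 and 0.286 FPKM in wild-type libraries, 2.00, 2.89 and 2.57 in mutant libraries and 1.85, 1.07 and 1.27 in rescued libraries. Cre01.g004124_4532 had 3.57, 4.51 and 3.86, then 11.0, 9.22 and 11.3, and in the rescued strain 7.41, 3.92 and 6.02 FPKM. In Cre01.g004157_4532 the levels were 1.20, 1.45 and 1.11, then 3.69, 3.90 and 4.42, and 2.55, 1.62 and 2.29 FPKM in the rescued strain. In all 3 genes the mutant libraries were above all others and the rescued mean lay between the other strains, and in Cre01.g004124_4532 rescued and wild-type libraries overlapped. The rises were 1.20, 1.21 and 1.15 (adjusted p 5.5e-05, 0.00013 and 1.9e-05, limma). The differences of rescued strain from mutant were -0.55, -0.79 and -0.68, with adjusted p-values of 0.0091, 0.0026 and 0.00076, so that none reached the minimum for being called back. With a pseudocount of 0.1, Cre01.g003516_4532 was also called higher in the rescued strain relative to the wild type (difference 1.30). With a pseudocount of 5 none of the 3 rises was a call, and with quantile normalization that of Cre01.g004157_4532 was 0.9968.

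Among the members that fell in the mutant, Cre01.g004900_4532 changed most. This gene, 19 genes to the left of CEHC1 and also without a symbol, had 18.4, 18.0 and 17.5 FPKM in wild-type libraries, 1.16, 1.18 and 1.12 in mutant libraries and 0.570, 0.482 and 0.706 in rescued libraries. The wild-type libraries stood far above both other strains, and the rescued libraries were the lowest. It fell in the mutant (difference -3.14, SE 0.08, adjusted p 6.1e-10, limma) and in the rescued strain relative to the wild type (difference -3.58, SE 0.08, adjusted p 1.2e-09). Rescued strain minus mutant gave -0.44 (SE 0.08, adjusted p 0.00060), the direction opposite to a return. Both calls against the wild type held under each alternative run. The next member to its right, Cre01.g004950_4532, was at 35.2 ± 2.52, 26.3 ± 0.721 and 33.6 ± 2.62 FPKM (SD, n = 3) in wild type, mutant and rescued strain, so the low level in the rescued strain was not shared by it. The next to its left, Cre01.g004850_4532, was too low to test and went the other way, with means of 0.0897, 0.418 and 0.369 FPKM. Beyond it, Cre01.g004800_4532 was lower in the rescued strain than in the wild type by less than a call (difference -0.34, adjusted p 0.021, limma).

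In rescued strain against mutant, 4 of the 51 members were called, or 7.84%, against 9.18% of all genes tested. The call was higher for Cre01.g006150_4532 (background 5.41%) and lower for Cre01.g004750_4532, Cre01.g005950_4532 and RPK1 (background 3.77%). Of the 7 members called in the mutant, 2 were called back, Cre01.g004750_4532 and RPK1, or 28.6%, against 603 of the 1068 genes called in the mutant over the whole table, or 56.5%. As shares of genes tested these are 3.92% of members and 5.31% of all genes. The difference between the shares was not tested. Both comparisons use the mutant libraries. By adjusted p alone, 33 members differed between rescued strain and mutant (background 58.1%). A difference in the mutant that was met by one of opposite sign in rescued strain against mutant was seen in 26 members, 13 of them higher and 13 lower in the mutant, and 44.8% of all genes tested had one. In rescued strain against wild type, 2 members were called, Cre01.g004900_4532 and Cre01.g005950_4532, both lower (background 1.67%), or 3.92% of members against a background of 2.31%. By adjusted p alone, 20 members differed there (background 40.3%). No member was called higher there (background 0.634%), although 7 had an adjusted p under 0.05 and a higher mean in limma (background 18.5%).

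**Figure D3:**
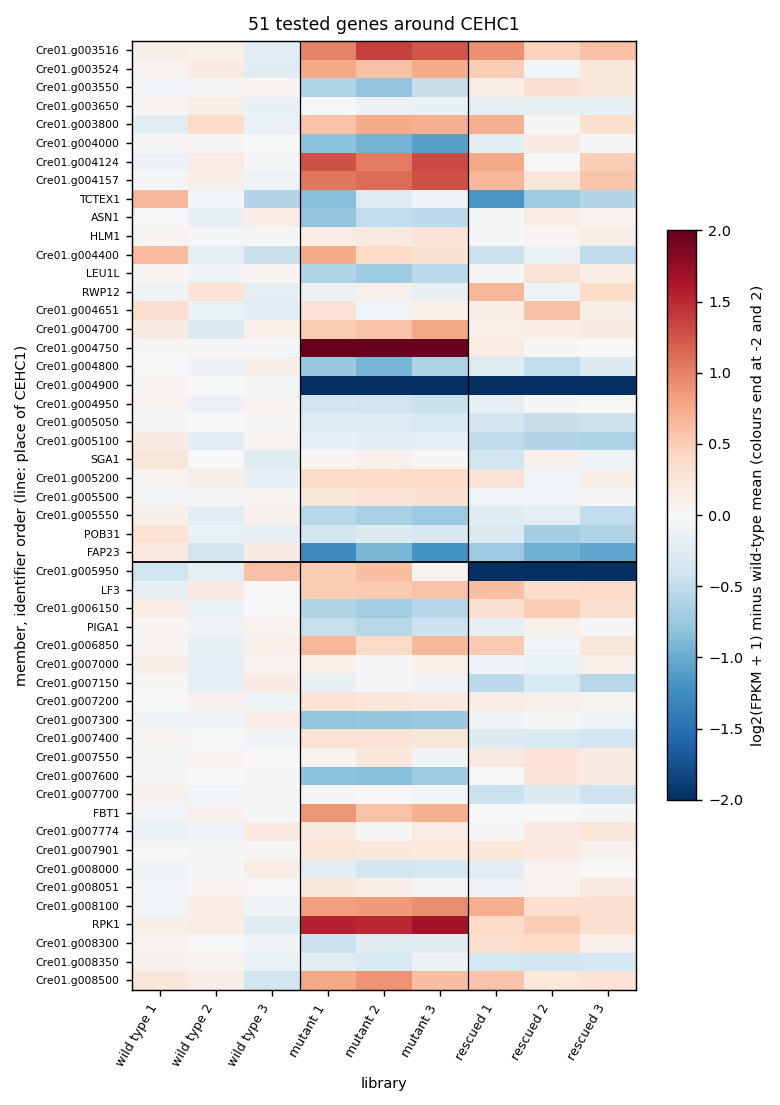
Each of the 51 tested members (rows, identifier order) in each library (columns), as log2(FPKM + 1) minus the mean of the wild-type libraries. The line marks the place of CEHC1. The rows of Cre01.g004750, Cre01.g004900 and Cre01.g005950 have a deep colour among paler neighbours. The adjacent members Cre01.g004124 and Cre01.g004157 were both higher in the mutant, by 1.21 and 1.15.

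Members with a symbol were then read by their roles. The range holds 5 such members tied to cilia or basal bodies by name. FAP23, POB31 and LF3 are described above. TCTEX1, of a family of dynein light chains, varied widely between wild-type cultures, with 34.2, 20.5 and 13.9 FPKM, against 11.5, 17.7 and 19.8 in mutant and 9.02, 12.7 and 14.0 in rescued cultures. All 3 groups overlapped, and the differences of mutant from wild type (-0.41, adjusted p 0.24) and of rescued strain from mutant (-0.42, adjusted p 0.24) did not pass the test in limma. Rescued strain minus wild type gave -0.82 (SE 0.29, adjusted p 0.045, limma), below the size set for a call, with -0.50 (adjusted p 0.14) without wild-type replicate 1 and -1.12 (adjusted p 0.013), past that size, without wild-type replicate 3. MOT42, of a group of genes conserved in species with motile cilia, was too low to test, with 0.375, 0.885 and 0.261 FPKM in wild-type libraries, 1.21, 2.25 and 0.618 in mutant libraries and 0.0214, 0.238 and 0.0955 in rescued libraries. Its rescued libraries were the lowest group. Wild-type replicate 1 was the highest of its strain for FAP23, POB31 and TCTEX1. Without it the differences of mutant from wild type were -1.02, -0.17 and -0.08. FAP23, the only one of these called with all libraries, was still a call.

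Of the 3 metabolic genes with a symbol on the left arm of the range, 2 were lower in the mutant than in either other strain, by amounts under the minimum for a call. ASN1, an asparagine synthetase, had 58.2, 52.8 and 65.1 FPKM in wild-type libraries, 33.5, 41.1 and 40.4 in mutant libraries and 57.4, 64.7 and 61.7 in rescued libraries. LEU1L, the large subunit of an enzyme of leucine synthesis, had 118, 108 and 119, then 75.0, 69.7 and 78.4, and 117, 137 and 127 FPKM. In both, the mutant libraries were below all others while rescued and wild-type libraries overlapped. The differences of mutant from wild type were -0.60 for ASN1 (adjusted p 0.00041, limma) and -0.62 for LEU1L (adjusted p 7.8e-05). SGA1, a serine glyoxylate aminotransferase of photorespiration, was level across strains within its spread, with means of 85.0 ± 14.5, 87.7 ± 2.41 and 77.8 ± 12.7 FPKM (SD, n = 3). Its difference of mutant from wild type was 0.06 (SE 0.14, adjusted p 0.73).

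On the right arm, PIGA1, named for an enzyme of glycolipid anchor synthesis, had means of 5.12 ± 0.384, 3.38 ± 0.204 and 4.95 ± 0.588 FPKM in wild type, mutant and rescued strain (SD, n = 3). It was lower in the mutant by a difference of -0.48 (adjusted p 0.00087, limma). FBT1, of the folate and biopterin transporter family, went the other way, with 2.87 ± 0.187, 5.40 ± 0.705 and 2.87 ± 0.0411 FPKM. Its difference of mutant from wild type was 0.72 (SE 0.09, adjusted p 5.5e-05), and that of rescued strain from mutant was -0.72 (SE 0.09, adjusted p 6.8e-05). Neither gene was called. Of the 2 remaining members with a symbol, RWP12, of the RWP-RK family of transcription factors, had 4.01 ± 0.895, 3.77 ± 0.462 and 5.29 ± 1.61 FPKM and passed no test. HLM1 had 7.17 ± 0.253, 8.37 ± 0.364 and 7.45 ± 0.438 FPKM, a difference of mutant from wild type of 0.20 (adjusted p 0.029).

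On the scale of the deposited FPKM, the direction of a member in the mutant went with its level, as it did over the whole table. Of the 16 tested members with a mean of 10 FPKM or more, 13 had a lower and 3 a higher mean in the mutant than in wild-type cultures, with a median difference of -0.61, and over the 3753 genes of the table at that level the median was -0.48. The 35 tested members under 10 FPKM had a median of 0.23, with 24 higher and 11 lower, beside 0.04 over 7607 genes. Quantile normalization moved the median of the abundant members to -0.12 and that of all abundant genes to -0.07. Under 10 FPKM it gave 0.18 for the members and -0.05 for all genes. The split by level over the whole table was thus nearly absent on that scale. One of the abundant members was Cre01.g007600_4532, with 80.2 ± 1.22, 46.0 ± 2.58 and 88.8 ± 8.72 FPKM (SD, n = 3) in wild type, mutant and rescued strain.

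Of the 42 tested members that were called in no comparison, the differences of mutant from wild type ran from -0.95 to 0.87, those of rescued strain from mutant from -0.84 to 0.93, and those of rescued strain from wild type from -0.82 to 0.46. Cre01.g004000_4532 came nearest to a call in the mutant, with 28.5 ± 0.341, 14.4 ± 1.36 and 28.2 ± 3.99 FPKM (SD, n = 3). Its mutant libraries were below all libraries of both other strains. In 8 tested members no comparison had an adjusted p under 0.05 in limma, among them SGA1 and RWP12. Cre01.g005050_4532, the most abundant member tested, was at 154 ± 3.93, 127 ± 2.42 and 114 ± 3.51 FPKM, and it stepped down from wild type to mutant and from mutant to rescued strain.

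The other 28 members had a mean below 1 FPKM. Of these, 6 were listed at 0 in all 9 libraries, 2 on the left and 4 that follow one another on the right, from Cre01.g006450_4532 to Cre01.g006766_4532. In 12 of the 22 members above 0, every mutant library was above every wild-type library, and in 4 every mutant library was below. Over all genes above 0 but below the minimum these shares were 49.5% and 6.15%. Cre01.g007251_4532 had 0, 0 and 0.00917 FPKM in wild-type libraries, 0.389, 0.451 and 0.242 in mutant libraries, and was listed at 0 in the 3 rescued libraries. It was thus nearly confined to the mutant libraries, as Cre01.g004750_4532 was at a higher level. Cre01.g003500_4532, the first member of the range, had 0.224, 0.287 and 0.256 FPKM in wild-type libraries, 1.48, 1.30 and 1.39 in mutant libraries and 0.907, 0.435 and 0.812 in rescued libraries. The gene just outside the left end, Cre01.g003487_4532, had strain means of 2.41, 2.48 and 2.34 FPKM, and Cre01.g008550_4532 just outside the right end had 15.6, 10.9 and 16.7, beside 0.833, 2.07 and 1.32 for the last member, Cre01.g008500_4532.

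The 12 family genes left out of the range gave 1 call in the mutant, or 8.33% (background 9.40%). In rescued strain against mutant they gave 2, or 16.7% (background 9.18%). FDX7, a ferredoxin, which is a small electron carrier, is 4 genes to the right of CEHC1 and had 8.03 ± 1.09, 3.28 ± 0.0583 and 7.97 ± 0.760 FPKM (SD, n = 3). It fell in the mutant (difference -1.07) and was called back in the rescued strain (difference 1.07). Neither call held after rescaling by median ratios. On that scale the lowest value among the 12 family genes was -0.95 for mutant minus wild type. The highest for rescued strain minus mutant was 0.9956. With quantile normalization these extremes were -1.05 and 1.11, past the size set for a call. RSP10, a radial spoke protein of cilia that is 10 genes to the left, had 7.71 ± 3.67, 8.32 ± 0.576 and 3.50 ± 1.16 FPKM (SD, n = 3). It fell in the rescued strain relative to the mutant (difference -1.08, SE 0.25, adjusted p 0.0042, limma), while mutant minus wild type gave 0.17 (adjusted p 0.56).

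Other stretches of chromosome 1 were counted in the same way, as a description. In mutant against wild type, 2 of 45 tested genes to the left of the range were called and 11 of 68 in the stretch to its right, up to Cre01.g013500, beside 7 of 51 members and 59 of 686 genes on the rest of the chromosome. In rescued strain against wild type the counts were 1, 6, 2 and 11 in the same order. As shares of genes tested, the counts in mutant against wild type were 4.44%, 16.2%, 13.7% and 8.60%, beside 9.40% of all genes. In rescued strain against wild type they were 2.22%, 8.82%, 3.92% and 1.60%, beside 2.31% of all genes. Both shares were higher in the stretch to the right than among the members. No test of these differences was made.

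**Figure D4:**
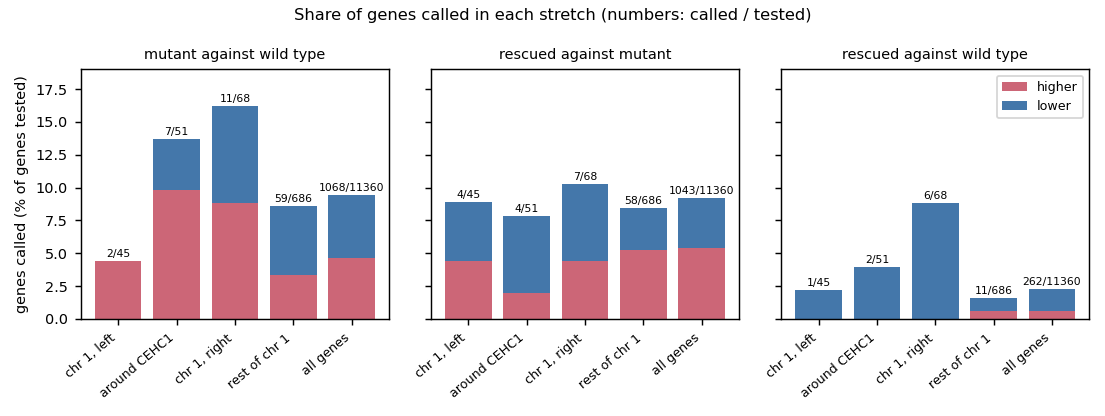
Genes called as a percentage of genes tested (vertical axis) in stretches of chromosome 1 and over all genes, split into higher and lower, with called and tested numbers above the bars. For mutant against wild type the members stand at 13.7% and all genes at 9.40%.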

How the data were processed

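Paired-end reads of 125 bp were made from polyA RNA of 9 cultures, per the labels' protocols. The authors deposited FPKM per library and 1 FPKM value per strain. STAR 2.7.10b and Cuffdiff 2.0.2 are named by the submitters' processing notes, without their roles, and a genome build was not given in the sources used here. Strain values of the authors lay within 1% of the replicate means for 49 of 51 tested members in the wild type and for all 51 in the other strains, and all results are from the values per library. A count model was not used on FPKM.

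Groups and replicate numbers come from the sample titles. Genes whose mean reached 1 FPKM were transformed to log2(FPKM + 1) and fitted over all 9 libraries with group means in limma 3.58.1 (R 4.3.3), with a variance trend over the level and Benjamini-Hochberg adjustment over 11360 genes. The procedure was tested on simulated data. Figures used matplotlib 3.10.9.

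Of the 79 members 66 have no symbol in the deposited table, and the RefSeq gene table (assembly Chlamydomonas_reinhardtii_v5.5) gave a symbol for 0 of the 79. That table served for gene order only, so no coordinates are given, and 27 further genes that it places in the range were not analysed here. No sequences were used. The expression that sets aside genes of other families was rebuilt from the names of those families. The members and lists were chosen with earlier results of these data known. Named in full were FAP23, the 3 nearest tested members on each side of CEHC1 and every member called in any comparison, 12 genes in all, and other members with a symbol are given by level. Other names, and the alternatives for TCTEX1, were picked with their values in view. Alternatives comprised other pseudocounts, filters, scalings, variance models, sample sets and gene ranges, and leaving out each library.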

Additional observations from a re-analysis of the deposited data

How the results depend on the processing

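The counts of members called were 7 for mutant against wild type, 4 for rescued strain against mutant, 2 for rescued strain against wild type and 2 called back. A pseudocount of 5 gave 2, 2 and 1 for mutant against wild type, rescued strain against mutant and called back. A minimum mean of 5 FPKM gave 3, 2 and 0, because fewer genes were tested. Without a minimum difference the 4 counts were 35, 33, 20 and 26. Of all genes tested, 66.2%, 58.1%, 40.3% and 44.8% passed in the same order. For the other settings of the fit the share of all genes was not counted, so no background stands beside those counts. In the narrower range of Cre01.g004700 to Cre01.g007100, which holds fewer genes, 3 members were called in the mutant and 1 was called back. The other 75 recomputed counts lay within 1.5 times the main count, among them those with a pseudocount of 0.1, no minimum FPKM, both rescalings, other variance models, the 2 groups alone and all genes of the range kept. Leaving out 1 library gave 7 to 8, 3 to 6, 2 to 3 and 2. Over the 12 named genes no difference changed sign. In 14 of 697 recomputed differences a call was lost and in 18 one was gained, 16 of these without a minimum difference. With the replicate number as a block the counts stayed at 7, 4, 2 and 2, and no call of a named gene changed. Whether the numbers pair the samples was not settled. Deviations of same-numbered libraries correlated at -0.13 to 0.16 and those of other pairs at -0.26 to 0.19. Of the 9 libraries, 5 were most like their own number in both other strains. Depth per library is unknown, which limits the members below 1 FPKM.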
